A study of Mus musculus with 12 samples.

Results

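The comparison described here is that of recombinant RELMa, written rRELMa, with PBS in the second of the study's runs. It rests on 6 of the study's 12 samples, the 3 titled as run 2 with rRELMa and the 3 titled as run 2 with PBS. Of the 754 endogenous probes of the panel, 446 had a mean raw count of at least 20 over these 6 samples and were compared, and 308 lay below. The genes just above that minimum were Faf1 with a mean of 20, Cd40 with 20.3, Enpep with 20.5, Cdh5 with 20.7 and Ccl25 with 21.2. Just below it lay Fut4 and Egr3, both with 19.8, and Cldn1, Dpp4 and Ltb4r1 with 18.8, 18.7 and 18.5.

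Both groups came from RELMa-/- mice, so the PBS controls lacked the endogenous protein too. The mice had received 500 infective larvae of the intestinal nematode Nippostrongylus brasiliensis, whose larvae pass through the lung, and lungs were taken 10 days later. Cells carrying CD11c, an integrin of alveolar macrophages and dendritic cells, were sorted and cultured overnight, starved of serum and given PBS or 500 ng/ml rRELMa for 4 h. The sources used here give neither the age, sex and strain of the mice nor whether samples 1 to 3 were separate mice or wells. The p-values therefore reflect only how far these samples spread, and that spread may be technical.

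RELMa is a small secreted protein of the resistin-like family, and Retnla is the gene that encodes it. Macrophages and epithelium release it during type 2 immunity, the response to worms driven by interleukin-4 and interleukin-13. The same cytokines induce Arg1, an enzyme that breaks down arginine, and the chitinase-like proteins encoded by Chil3 (Ym1) and Chil4 (Ym2), which bind sugars but do not cleave chitin. In mice, RELMa has been described as a brake on type 2 inflammation of the lung.

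The endogenous counts of a run 2 sample summed to 411169 to 765719, and 418 to 452 of the 754 genes exceeded the background limit of their sample, the mean plus 2 SD of its 8 negative-control probes (16.1 to 23.9 counts). The lowest total belonged to PBS sample 3. Its positive controls were also the lowest of run 2, with a geometric mean of 1728 counts against 2210 to 2456 in the other 5 samples. Endogenous totals were 1.19 times as high with rRELMa as with PBS, a difference within the spread (exact permutation test, two-sided, p = 0.4, where 0.1 is the smallest p that 3 against 3 samples allow). Retnla had 18, 14 and 7 raw counts with PBS and 5, 14 and 13 with rRELMa, each below its sample's background limit. Nothing in the sources used here tells where in the gene its probe lies. Markers of alveolar macrophages were well represented, with 10 of 10 above the count minimum, among them Siglecf with a mean raw count of 144 and Itgax, the gene of CD11c itself, with 1074. Of the dendritic cell markers 9 of 11 passed, with the cross-presenting cell marker Clec9a at 38.5 and Xcr1 at 4.00. Interstitial macrophage markers passed in 11 of 13 cases, among them Csf1r with 1048 and Apoe with 1031. Neutrophil markers passed in 2 of 12 cases, Mmp8 with 706 and S100a8 with 288, while Ly6g had a mean of 5.50. Eosinophil markers passed in 2 of 7 cases, Siglecf again and Ear6 with 169, while the eosinophil peroxidase gene Epx had 2.83. By contrast, 0 of 3 T-cell, 0 of 1 B-cell and 0 of 3 NK-cell markers passed. Mast cell or basophil markers passed in 0 of 8 cases and monocyte markers in 0 of 4. Fewer cells of a type and less RNA per cell cannot be told apart in such lysates.

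Chil4 rose with rRELMa, and it was the one gene of the 446 to pass the test (0.224%). With PBS its count, scaled between samples by the trimmed mean of M values (TMM), was 114839, 115806 and 114445 in samples 1, 2 and 3. With rRELMa it was 131045, 125949 and 125696. The lowest rRELMa sample thus lay above the highest PBS sample, and the means were 115030 ± 701 (SD, n = 3) and 127563 ± 3018 (SD, n = 3). The rise came to 10.9% (95% interval 6.62% to 15.3%), or 0.15 on the log2 scale (SE 0.03, edgeR quasi-likelihood test, adjusted p = 0.00727). No gene was called in the opposite direction. The call was lost under 9 of 24 alternatives, and leaving out PBS sample 2 or rRELMa sample 3 gave adjusted p = 0.0772 and 0.0865 (edgeR). In run 1 the log2 fold change of Chil4 was -0.03 (SE 0.07).

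Chil3, the paralog of Chil4 and the most abundant transcript measured, had TMM-scaled counts of 143848, 143293 and 138412 with PBS and 153956, 145739 and 147811 with rRELMa. Its groups did not overlap either, but its difference of 0.07 on the log2 scale (SE 0.03) did not pass (edgeR, adjusted p = 0.546). Together, both genes took 41.4%, 41.5% and 40.3% of all endogenous counts in the PBS samples and 43.6%, 42.7% and 42.7% in the rRELMa samples. The ratio of the Chil4 to the Chil3 count needs no scaling between samples, and it was 0.798, 0.808 and 0.827 with PBS and 0.851, 0.864 and 0.850 with rRELMa. It did not overlap between the groups (exact permutation test, two-sided, p = 0.1, the smallest p this design allows, adjusted p = 0.55 over 11 readings). This ratio was not among the readings named in the design. It holds the count of Chil4, already called on these samples, so its separation is no independent support. The ratio compares samples only, since the probes may count the transcripts with unequal efficiency. Chil3 also counts as an alveolar macrophage marker, and the summed level of the other 9 markers overlapped between the groups, from 8296 to 8885 in PBS samples and from 8430 to 8675 in rRELMa samples.

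**Figure D1:**
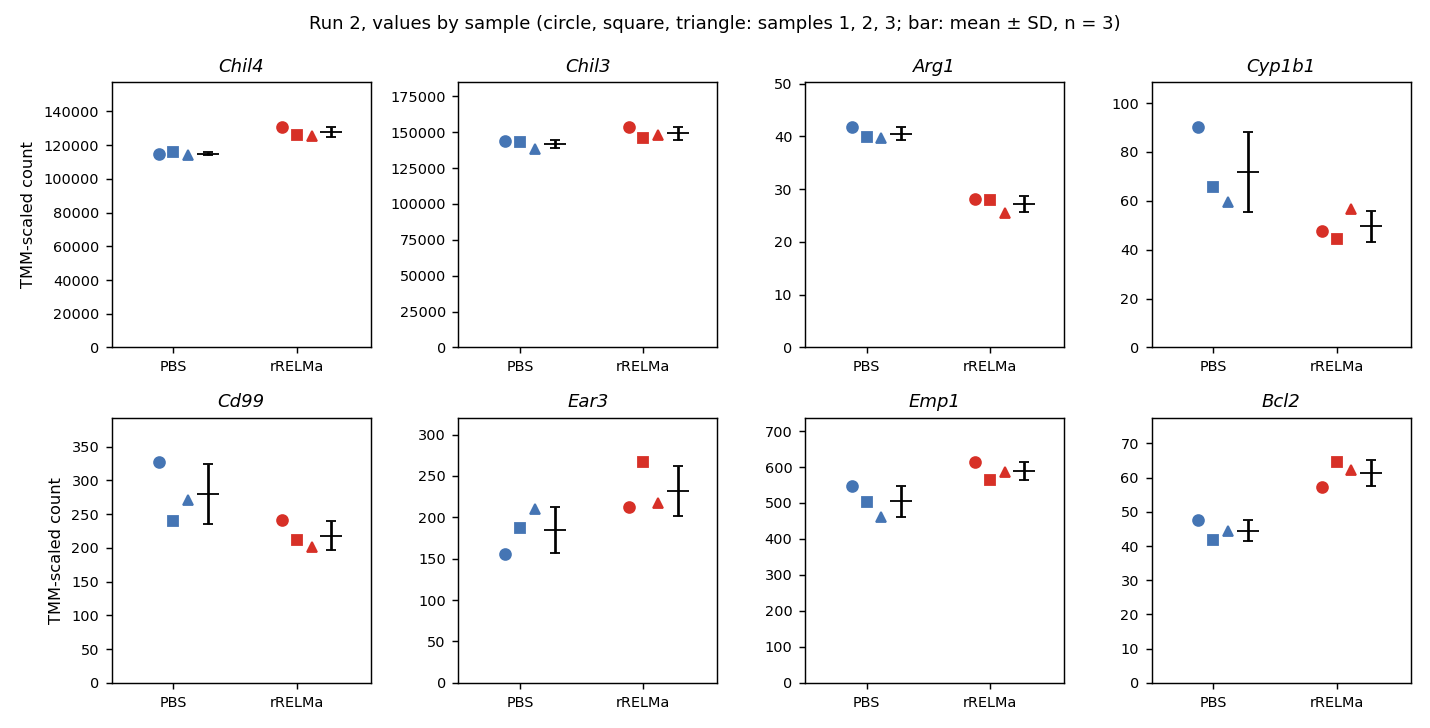
TMM-scaled counts of 8 genes in each of the 6 run 2 samples, with PBS in blue and rRELMa in red, on linear axes from 0; bars give the mean and SD of 3 samples. Chil4, Chil3, Arg1, Cyp1b1, Ear3, Emp1 and Bcl2 are separated between the groups, Cd99 is not, and of these genes Chil4 passed the test. All 8 are among the genes with the smallest p in these same samples, so their separation is not independent of that choice. Over all 446 genes 61 (13.7%) are separated.

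The target bases of the probes are not stated, so the split of counts between these paralogs is uncertain. Their start regions are shown because they let a reader see how alike the genes are there. Most of each window lies before the transcript start, so it cannot show how alike the transcripts are or whether probes share counts. Each window runs from 250 bases before to 50 bases after the annotated transcript start (RefSeq, build GRCm38.p6, minus strand, printed 5′ to 3′), at chr3:106219430-106219729 for Chil4 and chr3:106167515-106167814 for Chil3. Capitals mark the TATA box motif TATAAA.
Chil4: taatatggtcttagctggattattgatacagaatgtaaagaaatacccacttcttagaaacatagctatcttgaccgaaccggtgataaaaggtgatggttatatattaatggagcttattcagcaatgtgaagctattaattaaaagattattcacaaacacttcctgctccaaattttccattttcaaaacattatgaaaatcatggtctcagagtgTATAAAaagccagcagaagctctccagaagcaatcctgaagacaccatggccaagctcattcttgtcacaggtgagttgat
Chil3: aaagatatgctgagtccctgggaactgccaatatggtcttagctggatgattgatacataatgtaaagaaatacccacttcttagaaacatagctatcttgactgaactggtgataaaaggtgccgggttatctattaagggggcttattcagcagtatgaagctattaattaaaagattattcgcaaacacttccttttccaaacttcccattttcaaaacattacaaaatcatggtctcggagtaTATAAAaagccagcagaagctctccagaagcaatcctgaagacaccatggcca
In a global alignment 252 of 271 paired bases were identical (93.0%). A further 58 positions were gaps, 53 of them at the ends of the windows, and counted with these gaps 76.6% of the alignment columns matched. The match begins 31 bases before the annotated start in Chil4 and 3 bases before it in Chil3. In Chil3 it covers bases 248 to 253 of the window and so spans the annotated start. The printed bases that follow the match are the same in both genes up to the end of the Chil3 window. The unlike positions thus reflect where each start is annotated and are no difference in the motif itself. TATAAA was found on either strand in 13.6% of 32851 RefSeq promoter windows of this length.

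Arg1 stood lower with rRELMa, but near background and without passing the test in run 2. Its raw counts were 44, 45 and 26 with PBS and 33, 29 and 27 with rRELMa, so the unscaled groups overlapped, and the PBS sample with 26 was the one with the lowest total. After TMM scaling the values were 41.9, 39.9 and 39.7 with PBS and 28.2, 28 and 25.5 with rRELMa, without overlap. The log2 fold change was -0.57 (SE 0.19, 95% interval -0.97 to -0.18, edgeR, adjusted p = 0.44). The same estimate in run 1 was -0.55 (SE 0.13), and the difference of the effects was -0.03 (SE 0.21, adjusted p = 0.988, edgeR). All 6 values exceeded the background limit of their sample.

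None of the other genes with the smallest p on the lower side passed the adjustment (edgeR, adjusted p = 0.44 to 0.647). Cyp1b1, a cytochrome P450 enzyme induced through the aryl hydrocarbon receptor, had 90.4, 65.7 and 59.5 TMM-scaled counts with PBS and 47.8, 44.3 and 56.6 with rRELMa (log2 fold change -0.56, SE 0.17). Here the PBS samples spread more widely than the rRELMa samples, and sample 1 was the highest. Cd99, a surface glycoprotein used by leukocytes to cross endothelium, had 327, 240 and 272 with PBS and 242, 211 and 201 with rRELMa (-0.36, SE 0.11), so the groups touched. The chemokine receptor gene Cxcr4 had 503, 557 and 549 against 445, 495 and 446 (-0.21, SE 0.07), without overlap. Icam1, an endothelial and leukocyte ligand of integrins, had 75.2, 90.5 and 70.2 against 69.2, 55.9 and 50.9 (-0.44, SE 0.16).

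The inflammasome sensor gene Nlrp3 had 40, 50.6 and 47.3 TMM-scaled counts with PBS and 32.5, 34.7 and 30.2 with rRELMa (-0.50, SE 0.18). Vav1, a signalling protein downstream of Syk, had 406, 474 and 429 against 369, 382 and 380 (-0.21, SE 0.08). Both were separated between the groups. The histone gene Hist2h2aa1 (-0.14), the fatty acid-binding protein gene Fabp4 (-0.14) and Nrip3 (-0.57) complete the 10 genes on this side. Nrip3 was above the background limit in 5 of 6 samples.

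On the higher side, after Chil4, stood Emp1, a small membrane protein, with 548, 504 and 461 TMM-scaled counts in PBS samples and 614, 564 and 586 in rRELMa samples (log2 fold change 0.21, SE 0.07). Bcl2, which blocks apoptosis, had 47.6, 41.7 and 44.2 against 57.2, 64.6 and 62.2 (0.46, SE 0.16). The groups of both genes were apart, and neither gene passed (adjusted p = 0.44, edgeR). Ear3, of a family of eosinophil-associated ribonucleases whose members are also made by mouse macrophages, had 156, 187 and 211 against 213, 267 and 217 (0.34, SE 0.12). The highest PBS value and the lowest rRELMa value lay almost level, and its relative Ear6 had a log2 fold change of 0.05. Members of this family are close in sequence, so counts may be shared among them.

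The growth factor precursor gene Grn (progranulin) had 590, 646 and 699 TMM-scaled counts with PBS and 710, 814 and 689 with rRELMa (0.20, SE 0.07), with overlap. The chemokine gene Ccl6 had 200, 240 and 191 against 288, 234 and 250 (0.28, SE 0.11), again with overlap. Cdh1, the gene of E-cadherin, which marks epithelium and is also made by macrophages exposed to interleukin-4, had 34.3, 36.4 and 33.6 against 44.4, 40.5 and 58.5 (0.45, SE 0.19). Cdh1, Cdh5 and Cav1 were the 3 of 6 epithelial, endothelial or stromal markers above the minimum. Their sum was 1350 to 1511 in PBS samples and 1349 to 1467 in rRELMa samples, with overlap. Cav1 carried this sum, with a mean raw count of 1364 against 42.5 for Cdh1 and 20.7 for Cdh5. The sum therefore cannot show whether Cdh1 or epithelial cells changed. Map2k4, a kinase upstream of JNK (0.27), and the class I MHC gene H2-D1 (0.08) completed this side, with adjusted p = 0.647 for each (edgeR).

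**Figure D2:**
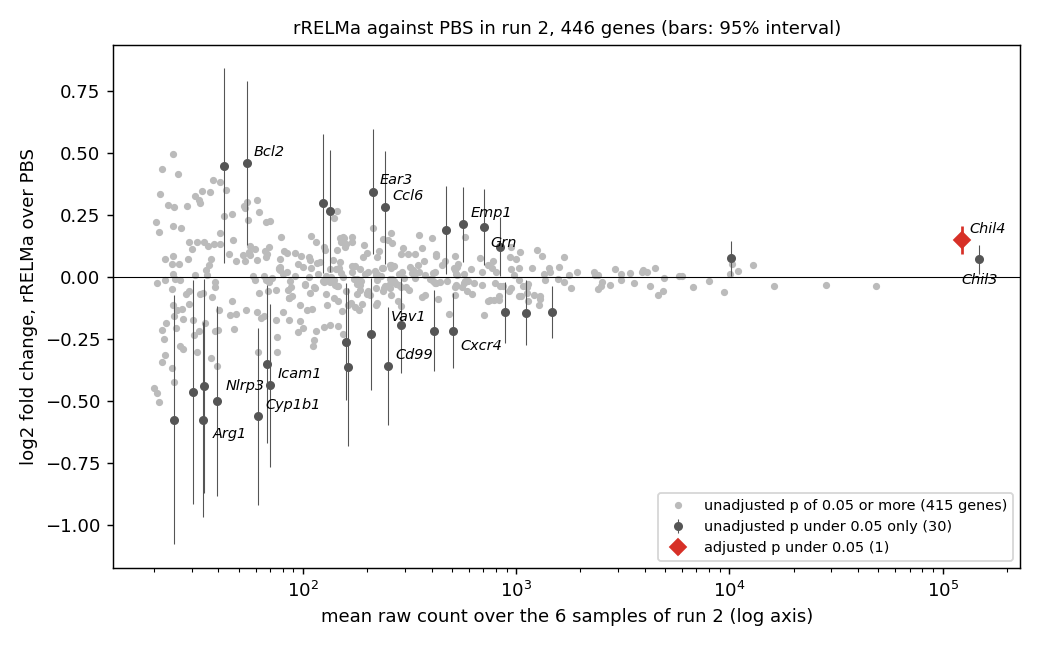
Log2 fold change of rRELMa over PBS in run 2 against the mean raw count on a log axis, 1 point per gene, with 95% intervals for the 31 genes at an unadjusted p under 0.05. The most abundant genes have the narrowest intervals; Chil4 at 0.15 is called, while Arg1, Cyp1b1 and Bcl2 lie farther from 0 with wide intervals.

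The differences in run 2 were small throughout. No gene reached a 1.5-fold difference, the largest estimate being 1.49-fold for Nrip3, and over all genes the median size of the log2 difference was 0.07. Of the 446 genes 221 had positive and 225 negative values, with a median of -0.001. An unadjusted p under 0.05 was found for 31 genes (6.95%), 13 higher and 18 lower with rRELMa. For 377 genes (84.5%) the 95% interval lay wholly within a 1.5-fold change in either direction. The other 69 genes had intervals reaching beyond it, and their median mean raw count was 31.0 against 219 for those within. The standard error shrank with the count. Its median was 0.05 over the 65 genes with a mean above 1000 counts and 0.19 over the 161 genes with a mean below 100.

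In 61 genes (13.7%) the 3 rRELMa values lay wholly on one side of the 3 PBS values, 28 higher (6.28%) and 33 lower (7.4%). With 3 against 3 samples an exact permutation test allows no p below 0.1, so separation of a single gene shows little by itself. Of the 31 genes with an unadjusted p under 0.05, 23 were among these 61. The remaining 8, such as Cd99, Grn, Ccl6 and the monocyte attractant gene Ccl8, overlapped between the groups.

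Alternative activation, the macrophage state induced by type 2 cytokines, is the programme to which Arg1, Chil3 and Chil4 belong, and most of its other genes stayed close to 0. Of the 23 genes of the list on the panel 20 were tested. Chil4 rose, 19 did not pass, and the median log2 fold change was 0.04 over the list and -0.001 over all genes. By sign 15 members were positive and 5 negative, with Arg1 at the lower end and Socs1, an inhibitor of cytokine signalling, at the upper end with 0.35. The list was drawn up with results of these data known, so its count is a description. Of the type 2 cytokine axis 4 of 12 genes were tested and 0 passed, against 1 of all 446 genes (0.224%). The receptor-coupled kinase gene Jak3 had 0.29. The genes of interleukin-4, -13, -5 and -33 lay below the count minimum.

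Chemokines and their receptors held no called gene, against 1 of all 446 tested genes (0.224%). Of 18 CC chemokine genes 10 were tested, 8 with positive and 2 with negative values (median 0.10). Ccl6 and the macrophage inflammatory protein gene Ccl3 (0.27) were on the positive side, and Ccl8 (-0.36) on the negative. All 4 tested CXC chemokine genes were negative (median -0.14), with the platelet factor gene Pf4 at -0.24. Among the 6 tested receptors were Cxcr4 and the lymph node homing receptor gene Ccr7, at 0.16. Of the 20 proinflammatory genes on the panel 10 were tested, with a median of 0.11. Besides Nlrp3 they included Nos2, the inducible nitric oxide synthase gene, at 0.25, and the inflammatory caspase gene Casp1 at 0.12.

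Genes of pattern recognition and NF-kB were also near 0. The 19 tested pattern recognition genes had a median of 0.02, with the endotoxin receptor gene Tlr4 at 0.24 and the scavenger receptor gene Marco at 0.08. The 9 NF-kB genes had a median of 0.01. At their lower end stood Icam1 and Tnfaip3, a feedback inhibitor of the pathway, at -0.26. Btk, a kinase of B cells and macrophages to which RELMa has been reported to bind, and genes of its neighbourhood had a median of -0.02 over 8 tested genes, with Vav1 at -0.21, Pik3cg at -0.19 and Syk at 0.10. Immediate early genes, of which 10 were tested, centred on a median of 0.05, with Maff at -0.28 and the phosphatase gene Dusp1 at 0.18.

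Antigen presentation differed little between the groups. The 11 tested genes of class I MHC, its peptide transporter and the immunoproteasome had a median of -0.01, with the transporter gene Tap2 at 0.30. The 6 class II genes had a median of 0.09, with H2-Eb1 at 0.12 and H2-Aa at 0.08. The 10 genes of T-cell costimulation had the same median of 0.09, with Tnfsf4 (OX40 ligand) at -0.50 and Vsir at 0.08. Tnfsf4 exceeded the background limit in 3 of 6 samples. The 4 interferon response genes had a median of -0.06, with Irf7 at -0.13.

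After the chitinase-like genes, the most abundant transcripts were those of the lysosomal protease gene Ctsd with a mean raw count of 48485, the elastase gene Mmp12 with 28374, the protease inhibitor gene Cstb with 16142, Ctss with 12942 and Cd68 with 10916. The redox protein gene Txn1, H2-D1 and the lysosomal lipase gene Lipa followed with 10273, 10223 and 10085. None of these 8 genes passed the test. The 7 lysosomal genes had a median of 0.02, with the cathepsin gene Ctsl at 0.12 (785 ± 16.6 TMM-scaled counts with PBS and 856 ± 25.8 with rRELMa, SD, n = 3). The 14 lipid genes had a median of 0.01, with Fabp4 at -0.14, Acad10 at -0.46 and the prostaglandin D synthase gene Hpgds at -0.33. The 10 genes of metalloproteases and matrix had a median of -0.02, with the collagenase gene Mmp8 at -0.15 and Mmp19 at 0.07.

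**Figure D3:**
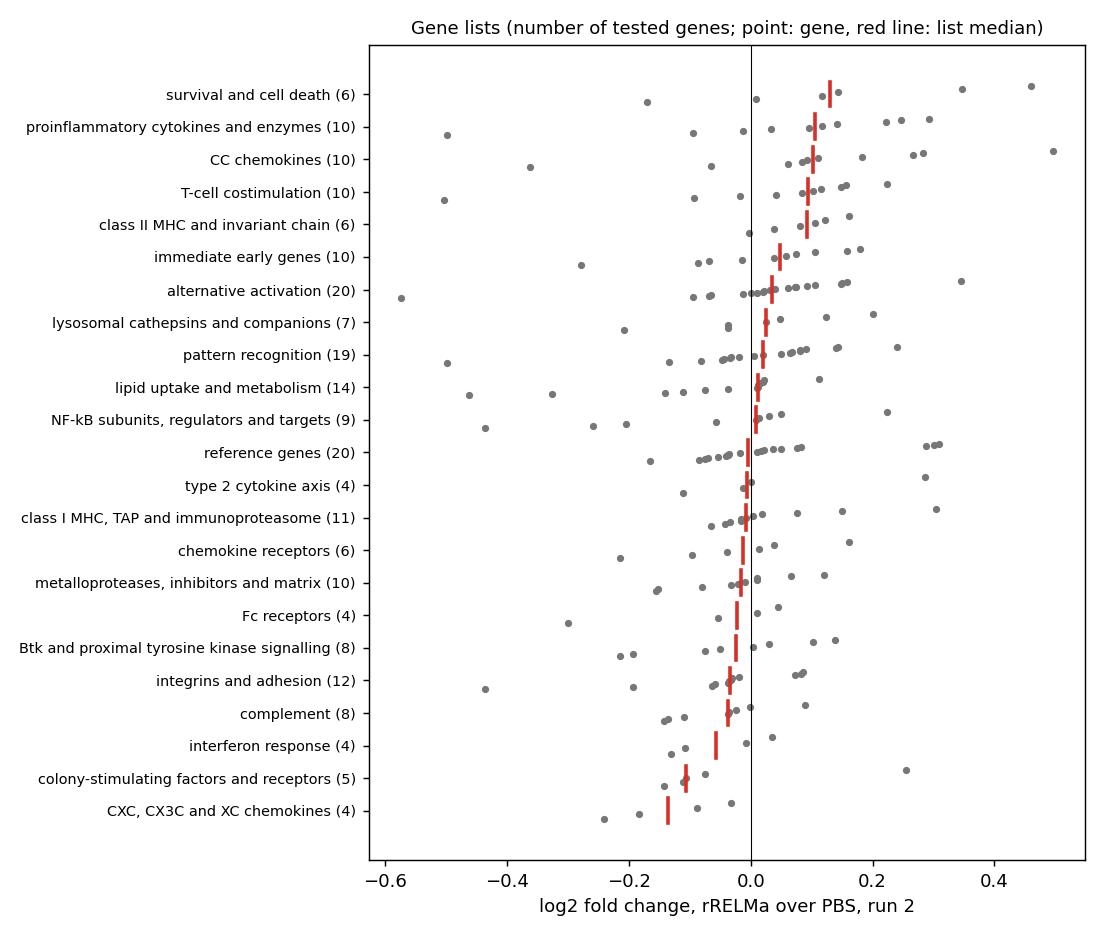
Log2 fold changes of rRELMa over PBS in run 2 for each tested gene of 23 lists with at least 4 tested genes; red lines are list medians. The medians run from -0.14 for the CXC chemokines to 0.13 for survival genes, and single genes such as Arg1 at -0.57 lie far from their list's median.

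The smaller lists gave similar values. The 6 survival and cell death genes had a median of 0.13, led by Bcl2 and the death receptor gene Fas (0.35). The 12 integrin and adhesion genes had a median of -0.03, with the fibronectin receptor subunit gene Itga5 at -0.19 and Itgb1 at 0.09. The 8 complement genes had a median of -0.04, with C1qb at -0.14, and the 4 Fc receptor genes -0.02, with Fcgr1 at -0.30 and above the limit in 4 of 6 samples. Of the 5 colony-stimulating factor and receptor genes Csf2ra, a chain of the GM-CSF receptor, had -0.14 and Csf1 0.26 (median -0.11). Vegfa, 1 of 2 tested genes of hypoxia, had -0.35. The 20 reference genes of the panel's design had a median of -0.004 and 0 calls, with Alas1 at -0.07 and Eif2b4 at 0.29. In all, 24 of the 25 lists held no called gene (edgeR), and the lists together covered 202 of the 446 tested genes. Chil4 was the only call among all 446 genes (0.224%) and belongs to 1 list. The 24 empty lists follow from that and are no result about their genes.

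For other cell types the marker sums overlapped between the groups. The summed level of the 11 tested interstitial macrophage markers was 4120 to 4452 TMM-scaled counts with PBS and 3861 to 4204 with rRELMa. By sign, 9 of these 11 markers were negative and 2 positive, with a median log2 fold change of -0.10, against 225 of all 446 genes negative. Pf4 and the lipid receptor gene Trem2 (-0.10) were separated lower, against 33 of all 446 genes (7.4%). Trem2 was named after its values were seen. Higher separation was found in 0 of the 11, against 28 of 446 (6.28%), and none of the 11 passed the test. The part of these markers in the results above was not tested. The summed level of 9 dendritic cell markers was 1521 to 1883 with PBS and 1620 to 1987 with rRELMa. S100a8 and Mmp8, the 2 of 12 neutrophil markers above the minimum, summed to 941 to 1144 and 835 to 1005.

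The labels do not say what separates the runs, so it is not known whether they share mice, cultures or lysates. Run 1 had the same labelled treatments in 3 and 3 further samples, which the comparison in run 2 did not use. Its endogenous totals were 179719 to 257415, against 411169 to 765719 in run 2. Its positive controls were higher, with geometric means of 2935 to 3796 against 1728 to 2456, so the runs differed in level. They differed in composition too. Irf7 and Arg1 had mean raw counts of 1231 and 113 in run 1 against 183 and 34 in run 2. Chil4 went the other way, with 33849 in run 1 against 123935 in run 2. The same 446 genes were fitted separately in run 1. Chil4 did not pass there (edgeR, adjusted p = 0.936), and its ratio to Chil3 was 0.759, 0.727 and 0.755 with PBS and 0.697, 0.736 and 0.743 with rRELMa. The groups overlapped in run 1, and rRELMa held the lowest value. The effect on Chil4 differed between the runs by 0.17 (SE 0.08), which did not pass the adjustment over all genes (edgeR, adjusted p = 0.653). Of the 20 genes with the smallest p in run 2, 11 had the same sign in run 1, against 241 of all 446 genes (54.0%). On the higher side 5 of 10 and on the lower side 6 of 10 kept their sign. Cdh1 and Cyp1b1 lay below the background limit in all 6 samples of run 1, so their sign there has no weight, and without them 10 of 18 had the same sign. Nrip3 exceeded the limit in 2 of the 6 samples of run 1, Bcl2 in 4 and Nlrp3 in 5.

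**Figure D4:**
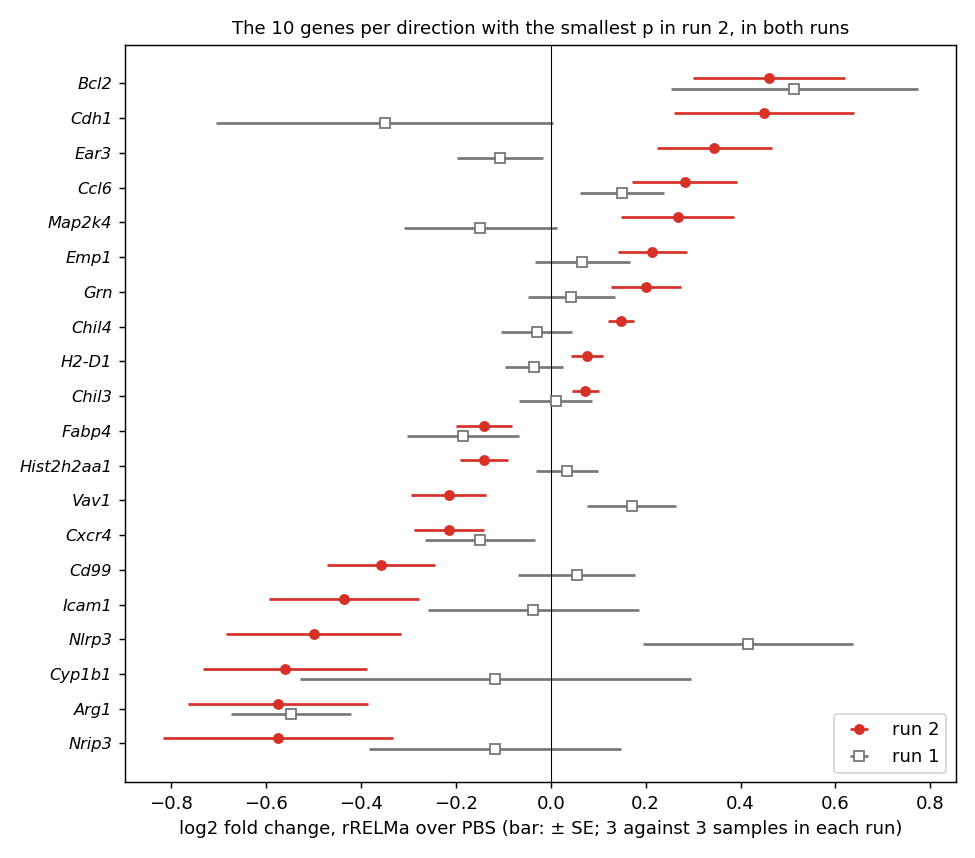
Log2 fold changes with standard errors of the 10 higher and 10 lower genes that had the smallest p in run 2, in run 2 (red circles) and in run 1 (open squares). Arg1, Bcl2, Ccl6, Cxcr4 and Fabp4 lie on the same side in both runs, while Nlrp3, Vav1, Ear3 and Map2k4 lie on opposite sides; Cdh1 and Cyp1b1 were below the background limit in run 1.

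Without overlap between the groups in the same direction in both runs stood 6 genes, and 4 more were separated in opposite directions, 1 of them below the background limit throughout run 1, while run 1 by itself separated 56 genes (12.6%). The 6 were Arg1 and the sphingosine-1-phosphate phosphatase gene Sgpp1 (-0.13 in run 2) on the lower side. On the higher side they were Bcl2, Itgb1, the vesicle fusion gene Vamp2 (0.16) and the lymphoid transcription factor gene Ikzf1 (0.07). Sgpp1, Vamp2 and Ikzf1 were named after their values were seen. None but Arg1 was called in run 1, and none of the 6 in run 2 (edgeR).

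The difference of the rRELMa effect between run 2 and run 1 was tested over all 12 samples, and no gene was called (edgeR, smallest adjusted p = 0.507, 29 genes or 6.5% at an unadjusted p under 0.05). This fit took the spread of each gene as shared between the runs, which differed in level. The genes with the smallest p on the negative side, that is with a lower estimate in run 2, were Vav1 (-0.39), the prostaglandin E2 receptor gene Ptger2 (-0.65), Nlrp3 (-0.92), Mmp8 (-0.46) and Csf2ra (-0.29). On the positive side they were Ear3 (0.45), the interleukin-1 receptor antagonist gene Il1rn (0.25), Irf3 (0.52), Fn1 (0.49) and Socs1 (0.74). The median standard error of this difference was 0.19, against 0.12 for the effect in run 2, so the lack of calls does not show that the runs responded alike.

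Among the alternatives, DESeq2 also called Chil4 alone (adjusted p = 1.52e-05). limma on log2 values, with a pseudocount of 1, gave the same log2 fold change of 0.15 but did not call it (adjusted p = 0.639). The edgeR fit over all 12 samples did not call it either (0.15, adjusted p = 0.469), nor did scaling to the reference genes (0.12, adjusted p = 0.628). With the positive controls the median of all genes moved to 0.18, and Chil4 had 0.34, or 0.16 above that median (adjusted p = 0.472). Quantile normalization returned 0 because Chil3 and Chil4 ranked first and second in each sample. Without PBS sample 2 or rRELMa sample 3, where the call was lost too, the log2 fold change was 0.15 and 0.16.

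**Figure D5:**
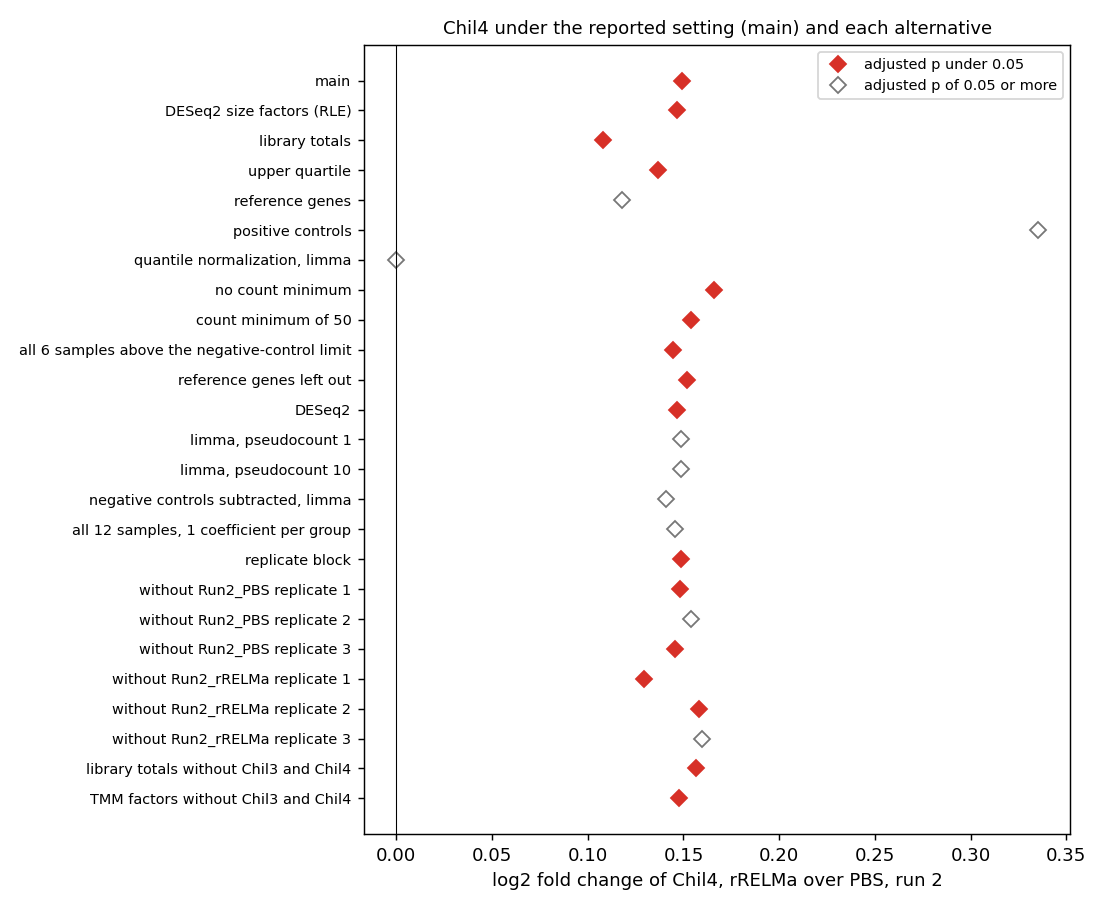
Log2 fold change of Chil4 in run 2 under the reported setting (main) and 24 alternatives; filled points have an adjusted p under 0.05. The value is positive in 23 of the 24 alternatives and 0 with quantile normalization, and 15 of the 24 call the gene.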

How the data were processed

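The authors deposited whole-number counts per probe from the NanoString nCounter XT assay, in which colour-coded reporters bound to transcripts are counted singly. Per the labels' protocols, lysate of about 5000 cells was hybridised with the Myeloid Innate Immunity Panel for 18 h at 65 °C. Control probes in the deposited counts were unscaled, and the lowest value was 1. No source used here names the counting software or any floor. Serum starvation lasted 1 h by one label and 2 h by another.

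Genes were tested with edgeR 4.0.16 (quasi-likelihood, R 4.3.3) after TMM scaling, on the 6 samples of run 2 with treatment as the one term, two-sided, with Benjamini-Hochberg adjustment over 446 genes and a call at an adjusted p under 0.05. The effect in run 1 and the difference between runs used the same genes. limma 3.58.1 and DESeq2 1.42.0 were alternatives. The median biological coefficient of variation was 6.77%. Between replicates of a group, counts differed beyond sampling noise (chi-square over its degrees of freedom, 1.62 to 3.14). Of the 446 symbols 441 were current in the GRCm38.p6 gene table, 4 were synonyms, and Ear3 was not found.

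Members and lists were chosen with earlier results of these data known. Named genes were Retnla, Arg1, Chil3 and Chil4, called genes, the 10 per direction with the smallest p, up to 3 per list, 5 per direction for the difference between runs, the 10 most abundant, and 5 on each side of the count minimum. Irf3 and Fn1 are named for the difference between runs alone. A gene withheld from the text is not reported here.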

Additional observations from a re-analysis of the deposited data

Results flagged for a closer look

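In Vav1, Ptger2 and Fgfr1 all 3 rRELMa samples lay on one side of the PBS samples in run 2 and on the other side in run 1. The difference itself was tested for each, and none passed the adjustment over all genes (edgeR, smallest adjusted p = 0.507). Vav1 had a log2 fold change of -0.21 in run 2 and 0.17 in run 1, Ptger2 -0.23 and 0.41, and the growth factor receptor gene Fgfr1 -0.17 and 0.54. Fgfr1 was below the background limit in all 6 samples of run 1, with 8 to 15 raw counts, so its value and its separation there are those of a probe at background. It was named after its values were seen. Groups of 3 samples are too small to be searched for single outlying samples.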

How the results depend on the processing

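Most alternatives changed 1 choice at a time. Quantile normalization and the subtraction of the negative controls also replaced edgeR by limma. DESeq2 also replaced the TMM scaling by its own size factors. The fit over all 12 samples also drew its TMM scaling and its spread from both runs. The comparison in run 2 called 1 gene, Chil4, under 15 of 24 alternatives and 0 under 9. The count was 0 with scaling to the reference genes or the positive controls, with quantile normalization, with limma at either pseudocount or after subtraction of the negative controls, and in the fit over all 12 samples; the number of lists holding a called gene was 0 there too. The cause was not tested. Leaving out 1 sample gave 0 to 1 genes and 0 to 1 lists, and Chil4 then ranged from 0.13 to 0.16 with an adjusted p from 0.000103 to 0.0865. Without the count minimum 92 genes of 754 were separated between the groups, since more genes were looked at. Arg1 ranged from -0.81 to -0.40 and was called under none of its 23 alternatives (lowest adjusted p = 0.0578). With limma at a pseudocount of 1 its adjusted p was 0.0592, against 0.639 for Chil4. Which of these genes had the smaller p thus depended on the processing. The positive controls moved the median of all genes to 0.18 and gave positive values to Alas1 (0.12), C1qb (0.045), Csf2ra (0.042), Fabp4 (0.040), Fgfr1 (0.0011), Hist2h2aa1 (0.045), Irf7 (0.057), Mmp8 (0.037) and Sgpp1 (0.046), and to the difference between runs of Csf2ra (0.078). Fcgr1 was positive after subtraction of the negative controls (0.47). Leaving out 1 sample, C1qb ranged from -0.25 to 0.021 and Irf7 from -0.33 to 0.013, both positive without rRELMa sample 2. The other values of the 63 genes followed kept their direction or were 0. The difference between runs called 0 genes under all 21 alternatives (lowest adjusted p = 0.0923, with the positive controls; 29 genes at an unadjusted p under 0.05 as reported, edgeR). Samples of the same number did not deviate together (correlations -0.05 to -0.01), and those of unlike number had -0.10 to 0.13. With 3 samples per group this cannot show whether the numbers pair the samples. With the number as a replicate block 1 gene, Chil4, was called in run 2 and 0 for the difference between runs. Library totals or TMM factors without Chil3 and Chil4, chosen after the data were seen, also called Chil4 (0.16 and 0.15). Counting depth limits the 161 genes with a mean below 100 counts.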
